A study of Mus musculus with 2 samples.

Results

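Imprinted genes are expressed mainly from the maternal or the paternal copy, and 40 of them, chosen as a fixed list of symbols, were followed here out of 43346 genes in the tables. They are Nnat, Blcap, Meg3, Rian, Mirg, Dlk1, Rtl1, Begain, H19, Igf2, Igf2r, Airn, Cdkn1c, Phlda2, Kcnq1ot1, Peg3, Zim1, Usp29, Snrpn, Ndn, Magel2, Mkrn3, Peg12, Ube3a, Gnas, Grb10, Mest, Copg2, Sgce, Peg10, Asb4, Plagl1, Impact, Trappc9, Zrsr1, Commd1, Nap1l5, Inpp5f, Slc38a4 and Rasgrf1, and all 40 were found. The tissue was labelled as central nervous system and came from embryos of the inbred mouse strain C57BL/6J at embryonic day 18, from littermates of both sexes, with no treatment or mutation named. Per the labels, polyadenylated RNA of more than 200 nt was freed of ribosomal RNA and read as stranded pairs on an Illumina HiSeq. There were 2 libraries, biological replicate 2 and biological replicate 1, in 1 group, so the data hold levels and the spread between libraries and no comparison of conditions. Both libraries carry the same donor identifier and separate sample identifiers, and the labels do not give the number of embryos, so the spread between them may be partly technical.

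Imprinting is set in the germline by DNA methylation at control regions, which survives the demethylation of the early embryo and then directs expression from a single parental copy in the offspring. Imprinted genes lie in clusters that often pair protein-coding genes with a long noncoding RNA, and the paternally and maternally expressed genes of a cluster often act on growth in opposite directions. Several are most active in the developing brain, among them the genes of the Prader-Willi and Angelman syndrome region and the Dlk1-Dio3 cluster. The strain is inbred and the tables hold no allele counts, so the parental origin of the transcripts was not measured, and statements on it below are background known from mouse. By this background 24 of the 40 genes were classed as paternal and 12 as maternal. The parental copy depends on transcript or tissue for 3 (Gnas, Grb10 and Blcap), and Copg2 was classed as largely expressed from both copies. The split is coarse and not specific to this tissue. Inpp5f, classed as paternal, is so for a short transcript in brain, and Ube3a, classed as maternal, is so in neurons.

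Replicate 2 had 142741622 assigned fragments, 137012773 of them on genes, and replicate 1 had 97513548, with 93979836 on genes. Levels are given as the deposited TPM, a measure of transcript abundance that is scaled by effective length and by the total of the library, and the value after ± is the SD (n = 2). Markers of the labelled tissue were present, since 7 of 7 neuronal markers were detected, with a summed level of 4613 TPM in replicate 2 and 4909 TPM in replicate 1. The 6 radial glia markers summed to 2115 TPM in replicate 2 and 1926 TPM in replicate 1. The libraries differed in other tissues. The 10 skeletal muscle markers summed to 640 TPM in replicate 2 and 15.7 TPM in replicate 1, and 8 cartilage and bone markers to 55.2 TPM in replicate 2 and 10.5 TPM in replicate 1. Of 7 choroid plexus markers Ttr carried most of the difference, with 1389 TPM in replicate 2 and 427 TPM in replicate 1, while the other 6 summed to 47.9 TPM in replicate 2 and 27.1 TPM in replicate 1. The 5 epidermal markers ran the other way, with 5.75 TPM in replicate 2 and 82.5 TPM in replicate 1. In these bulk samples fewer cells of a type and less RNA per cell cannot be told apart.

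The 40 genes included some of the most abundant transcripts of the tissue. Detection was set at 1 TPM in each of the 2 libraries, and 37 of 40 imprinted genes passed it (92.5%), against 14816 of 43346 genes overall (34.2%) and 13506 of 21474 protein-coding genes (62.9%). The median over all 40, undetected ones included, was 42.1 TPM in replicate 2 and 47.1 TPM in replicate 1. Over the 37 detected ones it was 57.7 TPM in replicate 2 and 47.4 TPM in replicate 1. All detected genes had 17.5 TPM in replicate 2 and 17.8 TPM in replicate 1. A mean of 100 TPM or more was reached by 13 of the 40 (32.5%), against 3.63% of all genes. Of the 37 detected ones 35.1% reached it, against 10.6% of all detected genes. A further 18 lay from 10 to 100 TPM, 6 from 1 to 10 TPM and 3 under 1 TPM. Since the list was drawn up with results of these data known, these shares describe the list and are not a test of it. The 40 genes together made 1.61% of all TPM in replicate 2 and 1.57% in replicate 1. Of this sum Nnat, Meg3 and Rian alone held 68.1% in replicate 2 and 69.2% in replicate 1. By cluster, replicate 2 had 42.9% of it in Dlk1-Dio3, 28.0% in Nnat with Blcap, 10.2% in Gnas and 7.73% in the Prader-Willi and Angelman region. Replicate 1 had 40.8% in Dlk1-Dio3, 31.2% in Nnat with Blcap, 10.9% in Gnas and 8.39% in the Prader-Willi and Angelman region. When the 40 genes were ordered by mean TPM, 19 of the 39 neighbouring pairs had library ranges that overlapped. Overlap across libraries alone does not settle the order. Some such pairs changed order between libraries, as Meg3 and Rian did. Others kept it, as Plagl1 over Peg10 did (42.05 against 38.1 TPM in replicate 2, 46.9 against 44.15 TPM in replicate 1).

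**Figure D1:**
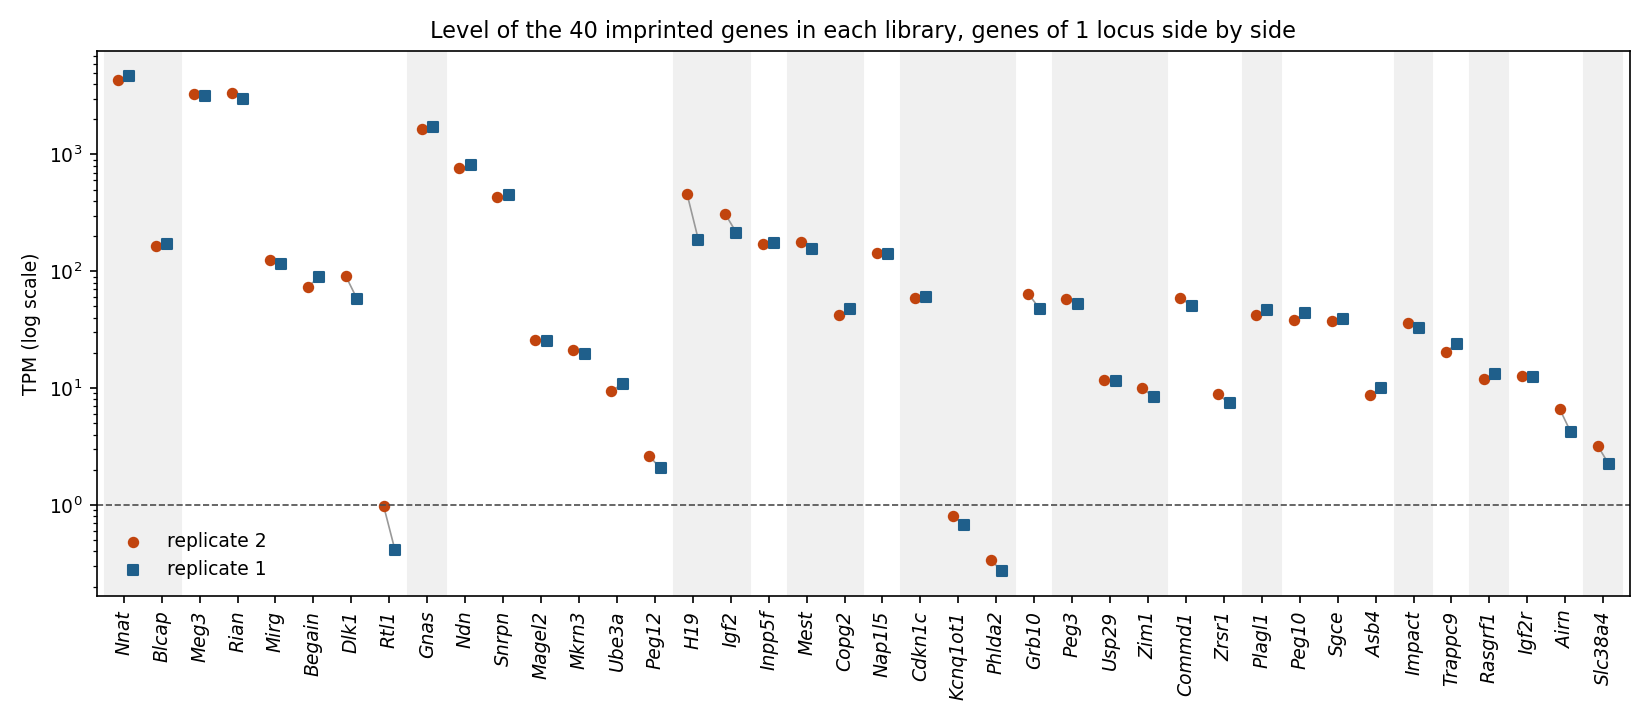
Level of each of the 40 imprinted genes in both libraries, in TPM on a log axis, grouped by cluster, with a dashed line at the detection level of 1 TPM. Nnat, Meg3, Rian and Gnas lead in both libraries, from 4546 TPM on average for Nnat to 1681 TPM for Gnas, and Kcnq1ot1, Rtl1 and Phlda2 lie under 1 TPM in both.

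Nnat, which encodes neuronatin, a small membrane proteolipid of developing neurons, was the most abundant imprinted gene and ranked 12 among all genes by mean TPM. It lies within an intron of Blcap, a small membrane protein gene, on GRCm38 chromosome 2 from 157560078 to 157562522, and is read from the opposite strand. Nnat stood at 4354 TPM in replicate 2 and 4738 TPM in replicate 1 (4546 ± 272). Blcap stood at 164 TPM in replicate 2 and 169.8 TPM in replicate 1 (167 ± 4.07). Nnat was above its host in both libraries, by 27.05-fold on the scale of TPM plus 1 (log2 4.76 ± 0.05). The reads are stranded, but whether the counting used the strand is not stated, so fragments of genes that overlap on opposite strands (Nnat with Blcap, Mest with Copg2, Igf2r with Airn, Commd1 with Zrsr1, Ube3a with Snhg14) may be shared between them. The deposited mm9 junction file adds the structure of the Nnat transcript. Its replicate columns, R2 and R1, are not tied to a library, so junction reads are given summed over both. Of 63322 reads that left the donor of the first exon (mm9 chromosome 2, intron from 157385997), 24681 (39.0%) entered an exon of 81 nt and 37347 (59.0%) passed it. The form with this exon encodes the longer neuronatin alpha and the form without it the shorter beta. Counting both sides of the exon, its inclusion was 48.7%, at 47.2% in R2 and 51.0% in R1. The sides were unequal, since 46287 reads left the exon and 24681 entered it, so inclusion was 39.8% from entering reads and 55.3% from leaving reads. Neither side puts the exon near 0 or 100%.

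The Dlk1-Dio3 cluster on chromosome 12 carries long noncoding RNAs of the maternal copy and protein-coding genes of the paternal copy. Its noncoding RNAs dominated. Meg3 (GRCm38 chromosome 12, 109541001 to 109571726) had 3285 TPM in replicate 2 and 3151 TPM in replicate 1 (3218 ± 95.1). Rian, the host of small nucleolar RNAs and miRNAs, had 3338 TPM in replicate 2 and 3002 TPM in replicate 1 (3170 ± 238). The ranges of Meg3 and Rian overlapped, with a log2 difference of Rian over Meg3 of -0.02 ± 0.07. As CPM without correction for length it was -1.15, so the closeness of the 2 rests on the effective lengths used. Mirg, the host of the largest miRNA group of the cluster, had 125 TPM in replicate 2 and 116 TPM in replicate 1 (121 ± 6.29), a log2 difference from Meg3 of -4.72 ± 0.03. Dlk1, a transmembrane protein of the Delta-like family, had 91.3 TPM in replicate 2 and 58.0 TPM in replicate 1 (74.6 ± 23.5), and Meg3 exceeded it by a log2 of 5.45 ± 0.41. Begain, a protein of the postsynaptic density at the edge of the cluster, had 73.8 TPM in replicate 2 and 88.7 TPM in replicate 1 (81.2 ± 10.5). Begain was under Dlk1 in replicate 2 and over it in replicate 1 (log2 of Begain over Dlk1 of -0.30 in replicate 2 and 0.60 in replicate 1), so these libraries give no order between the pair. Rtl1, a retrotransposon-derived gene needed in placenta and fetal muscle, had 0.98 TPM on 545 fragments in replicate 2 and 0.41 TPM on 152 fragments in replicate 1. The log2 difference of Rtl1 from Dlk1 was -5.46 ± 0.11 on the scale of TPM plus 1. It was -6.62 with 0.1 added and -3.78 with 5 added, so at so low a level its size and spread rest on the value added.

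The noncoding RNAs of the cluster are the source of many miRNAs, and those printed here show the relation to Rtl1 and the only seed found more than once. In RefSeq for GRCm38.p6, 14 miRNA hairpins lie within Mirg and 3 within Rian on their own strand, and 6 lie opposite Rtl1, on the strand of Meg3. Those opposite Rtl1 yield 11 mature miRNAs, each the exact reverse complement of a stretch of the annotated transcript Rtl1-201. The 5 examples run from position 109590459 to 109595352 of chromosome 12, on the plus strand, and in each the capitals mark the seed, bases 2 to 8.
mmu-miR-431-5p: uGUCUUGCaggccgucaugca
mmu-miR-433-3p: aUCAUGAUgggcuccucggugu
mmu-miR-127-3p: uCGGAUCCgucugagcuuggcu
mmu-miR-434-3p: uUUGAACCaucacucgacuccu
mmu-miR-136-5p: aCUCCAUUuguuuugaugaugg

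The matching stretches of Rtl1-201 begin at bases 5072, 3749, 2642, 965 and 199 of the transcript in the order of those miRNAs. As an example, the stretches for miR-433-3p and miR-127-3p are given 5′ to 3′ on the Rtl1 strand, all in lower case because they are complementary over the whole length.
Rtl1 site of mmu-miR-433-3p: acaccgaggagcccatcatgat
Rtl1 site of mmu-miR-127-3p: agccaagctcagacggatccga

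Among the mature miRNAs within or opposite the imprinted genes a single seed, GGUUGCC, occurred in more than 1 miRNA, and both lie in Mirg (chromosome 12, 109735669 to 109735692 and 109739132 to 109739152, plus strand). The other 3 shown are the Rian miRNA miR-370-3p (109618305 to 109618326, plus strand), the H19 miRNA miR-675-5p (chromosome 7, 142577112 to 142577133, minus strand) and the Mest miRNA miR-335-5p (chromosome 6, 30741314 to 30741336, plus strand). All 5 seeds are in capitals.
mmu-miR-453: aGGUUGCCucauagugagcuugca
mmu-miR-496a-5p: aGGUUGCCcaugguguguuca
mmu-miR-370-3p: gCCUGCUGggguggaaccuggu
mmu-miR-675-5p: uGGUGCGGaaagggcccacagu
mmu-miR-335-5p: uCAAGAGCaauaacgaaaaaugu

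The libraries were restricted to RNA over 200 nt, so mature miRNAs were not measured, and the values bear on the host transcripts. In the mm9 contig file, whose signal level has no stated scale, Rtl1 was covered by contigs over 9.16% of its length on its own strand, at a mean level of 0.091. On the opposite strand 98.7% of the Rtl1 body was covered, at a mean level of 37.8. The highest contig there, at 72.4, is the one that also spans Meg3, and a contig has 1 level over its whole length, so the level at Rtl1 itself is not given by the file.

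H19 and Igf2 share an enhancer set and a control region on distal chromosome 7. H19, a long noncoding RNA and the source of miR-675, was the imprinted gene whose libraries differed most, with 458 TPM on 84211 fragments in replicate 2 and 185 TPM on 22427 fragments in replicate 1 (322 ± 194). Scaled between libraries by the trimmed mean of M-values (TMM) this was 2.49-fold higher in replicate 2, a log2 ratio of 1.32. Igf2, the fetal insulin-like growth factor, had 311 TPM in replicate 2 and 214 TPM in replicate 1 (263 ± 68.8), a log2 ratio of 0.44. H19 was therefore above Igf2 in replicate 2 and below it in replicate 1 (log2 of H19 over Igf2 of 0.56 in replicate 2 and -0.21 in replicate 1). In the mm9 gene table H19 stood at 62.7 RPKM in R2 and 27.5 RPKM in R1. Igf2r, the receptor that removes IGF2 from the cell surface and is classed here as maternal, had 12.7 TPM in replicate 2 and 12.45 TPM in replicate 1 (12.6 ± 0.198). Airn, the paternal antisense RNA that silences Igf2r in cis, had 6.65 TPM on 451 fragments in replicate 2 and 4.17 TPM on 192 fragments in replicate 1 (5.41 ± 1.75). On the scale of TPM plus 1, the Igf2r level exceeded that of Airn by a log2 of 1.11 ± 0.38. The Airn TPM divides by an effective length of 751.67 nt in replicate 2 and 771.91 nt in replicate 1. In the mm9 contig file, contigs on the Airn strand covered 89.7% of its 118812 nt. As CPM without correction for length the log2 of Igf2r over Airn was 4.26. The size of this gap therefore rests on the length used, and Airn RNA outside the counted exons was not measured by the TPM. Igf2 exceeded Igf2r by 19.1-fold on the scale of TPM plus 1.

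Igf2 has several first exons that join a shared coding exon, and 2814 junction reads told them apart. The first exon nearest to the coding exons (mm9 chromosome 7, intron from 149841722 to 149843292) gave 2174 reads, 77.3% with an exact 95% interval of 75.7 to 78.8%. The next gave 460 reads (16.3%), the next 173 reads (6.15%), and the farthest 7 reads (0.249%, 0.1001 to 0.512%). These intervals, like all those given for junction reads, cover counting error only.

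Markers of several other tissues were also higher in replicate 2, as H19 and Igf2 were, while the epidermal and red blood cell ones were lower by their sums. The 5 red blood cell markers summed to 1240 TPM in replicate 2 and 1533 TPM in replicate 1. Of the 4 that passed the count filter 1 was higher and 3 were lower in replicate 2, none of them 2-fold. Besides the summed levels given above, the 8 markers of meninges and fibroblasts summed to 1030 TPM in replicate 2 and 611 TPM in replicate 1, with 5 of the 8 higher and 3 lower in replicate 2. They ranged from Col1a1, at 116 TPM in replicate 2 and 24.8 TPM in replicate 1, to Dcn, at 40.1 TPM in replicate 2 and 52.2 TPM in replicate 1. For muscle 9 of 9 markers that passed the count filter were at least 2-fold higher in replicate 2 and none of the 10 was listed at 0, the lowest level in replicate 1 being 0.1 TPM. For cartilage and bone 5 of 7 were at least 2-fold higher in replicate 2, for choroid plexus 2 of 7, and for meninges and fibroblasts 2 of 8. None of the 7 neuronal, 6 radial glial or 4 endothelial markers differed 2-fold in either direction. The part of these tissues in the H19, Igf2, Dlk1 and Rtl1 differences was not tested.

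Across all 40 genes the libraries were close. Only H19 (2.49-fold) and Rtl1 (2.37-fold, on 545 fragments in replicate 2 and 152 in replicate 1) were at least 2-fold higher in replicate 2, 2 of 40 or 5%, against 2.64% of the 18677 genes that passed the count filter. None was at least 2-fold lower, against 0.937% of all genes. The count of 2 is too small to set the list apart from that background. At 1.5-fold Dlk1 (1.54-fold) and Airn joined them, which made 4 of 40 (10%) against 6.31% of all genes that passed the filter, and the other 36 genes lay within 1.5-fold. At 1.5-fold lower there was none of the 40, against 2.73% of all genes. The median log2 ratio of replicate 2 over replicate 1 was 0.04 for imprinted genes and 0.00 for all genes, with 26 of the 40 higher and 14 lower in replicate 2, against 9432 higher and 9245 lower over all genes. For Copg2 and Sgce the scaled count ratio was above 1 while the TPM was lower in replicate 2, so these have no set direction. The median coefficient of variation was 7.51% for detected imprinted genes, against 5.13% for all detected genes.

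**Figure D2:**
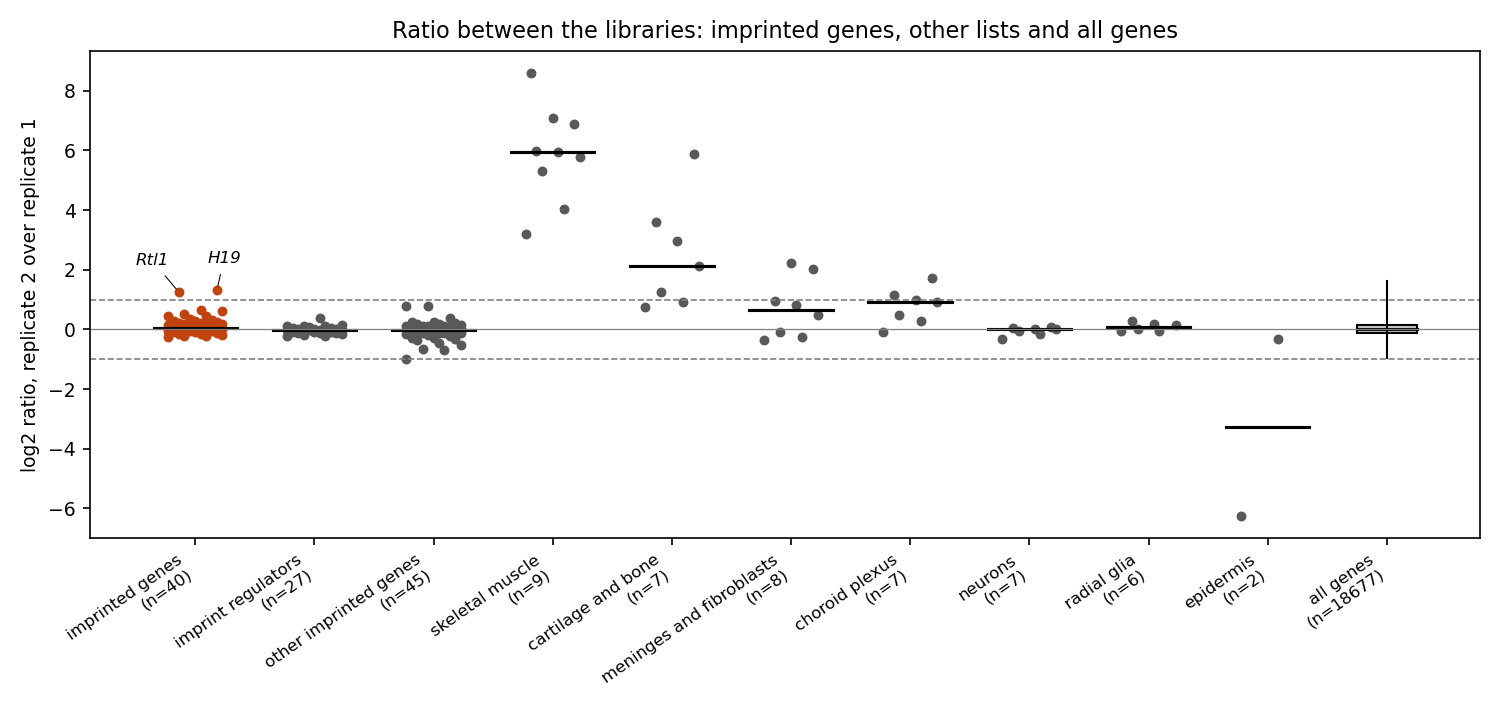
Log2 ratio of replicate 2 over replicate 1, scaled by TMM, with 1 dot for each gene: imprinted genes, their regulators, other imprinted genes, marker lists of other cell types, and all genes as a box from the lower to the upper quartile with a line from the 1st to the 99th percentile. H19 and Rtl1 are the imprinted genes above the dashed line of a log2 ratio of 1, while the skeletal muscle markers lie far above it.

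The cluster around Kcnq1 on chromosome 7 was carried by Cdkn1c, a maternally expressed inhibitor of the cell cycle that acts as neurons leave division. Cdkn1c had 59.3 TPM in replicate 2 and 60.1 TPM in replicate 1 (59.7 ± 0.622), a coefficient of variation of 1.04%. Phlda2, a gene that limits placental growth, was barely counted, with 17 fragments (0.34 TPM) in replicate 2 and 9 fragments (0.27 TPM) in replicate 1. Cdkn1c exceeded it by a log2 of 5.54 ± 0.07 on the scale of TPM plus 1, which understates the gap at so low a level. Kcnq1ot1, the long antisense RNA of the paternal copy that silences the cluster, had 0.81 TPM in replicate 2 and 0.67 TPM in replicate 1. That level rests on 6183 fragments in replicate 2 and 3381 in replicate 1, because the TPM divides by an effective length of 84197 nt. Kcnq1 itself, on the other strand, had 0.85 TPM in replicate 2 and 1.1 TPM in replicate 1.

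The Prader-Willi and Angelman region on proximal chromosome 7 holds paternally expressed genes and Ube3a, a ubiquitin ligase expressed from the maternal copy in neurons. Ndn, which encodes necdin, a MAGE family protein of postmitotic neurons, led the region with 759 TPM in replicate 2 and 811 TPM in replicate 1 (785 ± 37.3). Snrpn, the gene of the splicing protein SmN, had 429 TPM in replicate 2 and 451 TPM in replicate 1 (440 ± 15.7). Ndn exceeded Snrpn by a log2 of 0.83 ± 0.02 in these libraries. Magel2, another MAGE family gene, had 25.97 TPM in replicate 2 and 25.43 TPM in replicate 1, and Ndn exceeded it by 29.4-fold. Mkrn3, a RING finger ubiquitin ligase, had 21.2 TPM in replicate 2 and 19.6 TPM in replicate 1. Peg12, a member of the FRAT family of Wnt regulators, had 2.63 TPM in replicate 2 and 2.05 TPM in replicate 1. Ube3a had 9.47 TPM in replicate 2 and 10.8 TPM in replicate 1 (10.1 ± 0.948), so Snrpn exceeded it by a log2 of 5.31 ± 0.07. Ndn, Magel2, Mkrn3 and Peg12 are annotated with a single exon, and their levels still ran from 2.34 to 785 TPM. The Snrpn level is subject to a split of fragments with overlapping genes of the same strand, of which Gm38393 had 7.75 TPM in replicate 2 and 7.53 TPM in replicate 1. Snurf, the upstream reading frame of the Snrpn transcript, had 4.74 TPM on 9.48 expected fragments in replicate 2 and was listed at 0 in replicate 1.

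The strand of the reads separated Ube3a from the transcription that crosses it. A long transcript that starts near Snrpn runs through small nucleolar RNA genes and over Ube3a on the opposite strand, and in neurons it silences the paternal Ube3a. The annotated part of it, Snhg14, had 332 TPM in replicate 2 and 319.8 TPM in replicate 1. In the mm9 contig file 93.2% of the Ube3a body (72635 of 77976 nt, chromosome 7, 66484122 to 66562097) was covered on the antisense strand, at a mean level of 0.991. The Ube3a strand was covered over 86.9%, at a mean level of 0.730. The interval of 565290 nt between Ube3a and Snrpn (chromosome 7, 66562098 to 67127387) held 361 contigs on the strand of Snrpn, which covered 57.3% of it at a mean level of 1.69. On the strand of Ube3a 29 contigs covered 5.51% of that interval, at a mean level of 2.10 over the covered part. Of the 36 imprinted genes with an mm9 identifier, 3 were covered over more than 50% of their length by antisense contigs: Nnat, where Blcap lies opposite, Rtl1 and Ube3a. The same share over all genes was not computed, so the count describes these genes and does not set them apart from others. The median was 3.15% on the antisense strand and 91.2% on the gene's own strand. At Igf2r, where Airn lies opposite, antisense contigs covered 32.1% at a mean level of 0.133.

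**Figure D3:**
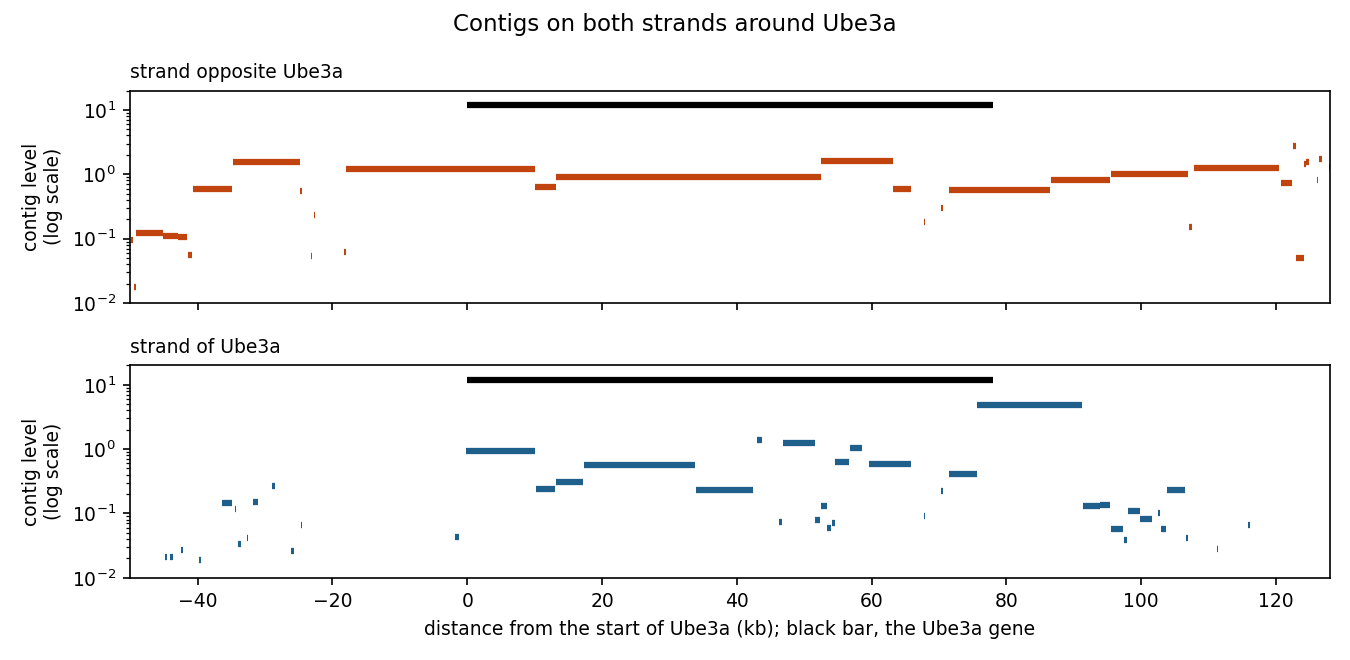
Contig levels on both strands around Ube3a, as deposited on mm9 with no stated scale, against the distance from the Ube3a start in kb, with a black bar for the gene. Contigs on the strand opposite to Ube3a run across the gene body, where they cover 93.2% of it, and continue on the side of Snrpn. They also lie, with gaps, on the other side, before the Ube3a start.

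At Peg3 on chromosome 7, the paternally expressed zinc finger gene Peg3 had 57.7 TPM in replicate 2 and 52.4 TPM in replicate 1 (55.0 ± 3.79). Usp29, a ubiquitin peptidase family gene that starts beside it and runs the other way, had 11.6 TPM in replicate 2 and 11.4 TPM in replicate 1. The maternally expressed zinc finger gene Zim1 had 9.97 TPM in replicate 2 and 8.39 TPM in replicate 1. Peg3 exceeded Usp29 by a log2 of 2.16 ± 0.08 and Zim1 by 2.46 ± 0.06.

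At Peg10 on chromosome 6, 2 neighbouring paternally expressed genes had levels that overlapped. Peg10, derived from a retrotransposon, had 38.1 TPM in replicate 2 and 44.15 TPM in replicate 1 (41.1 ± 4.28). Sgce, the epsilon-sarcoglycan gene that starts next to it on the other strand, had 37.4 TPM in replicate 2 and 39.3 TPM in replicate 1 (38.3 ± 1.30). Asb4, an ankyrin repeat and SOCS box gene expressed from the maternal copy, had 8.78 TPM in replicate 2 and 10.03 TPM in replicate 1, a log2 of 1.92 ± 0.07 under Sgce.

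Mest, a paternally expressed hydrolase family gene and the host of miR-335, had 177 TPM in replicate 2 and 155 TPM in replicate 1 (166 ± 16.0). Copg2, a coatomer subunit gene whose end overlaps that of Mest, had 42.1 TPM in replicate 2 and 47.2 TPM in replicate 1 (44.7 ± 3.60). Mest exceeded Copg2 by a log2 of 1.87 ± 0.25. Of 12 Mest transcripts 3 held at least 5% of the TPM of the gene in either library. Mest-211, of 12 exons and 2554 nt, had 47.2% in replicate 2 and 45.7% in replicate 1. The short Mest-204, of 2 exons and 417 nt, had 44.0% in replicate 2 and 39.6% in replicate 1, but 7.65% of the expected fragments in replicate 2 and 6.84% in replicate 1. The transcript ENSMUST00000128398 had 5.47% in replicate 2 and 11.1% in replicate 1. Transcripts that begin at the leading first exon (chromosome 6, 30738050 to 30738335) held 92.9% in replicate 2 and 87.2% in replicate 1 (90.1 ± 4.06), and 1043 of 1044 junction reads into the next shared exon came from it, a donor that the mm9 annotation also gives to ENSMUST00000128398. This exon is that of the imprinted promoter, which is methylated on the maternal copy.

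**Figure D4:**
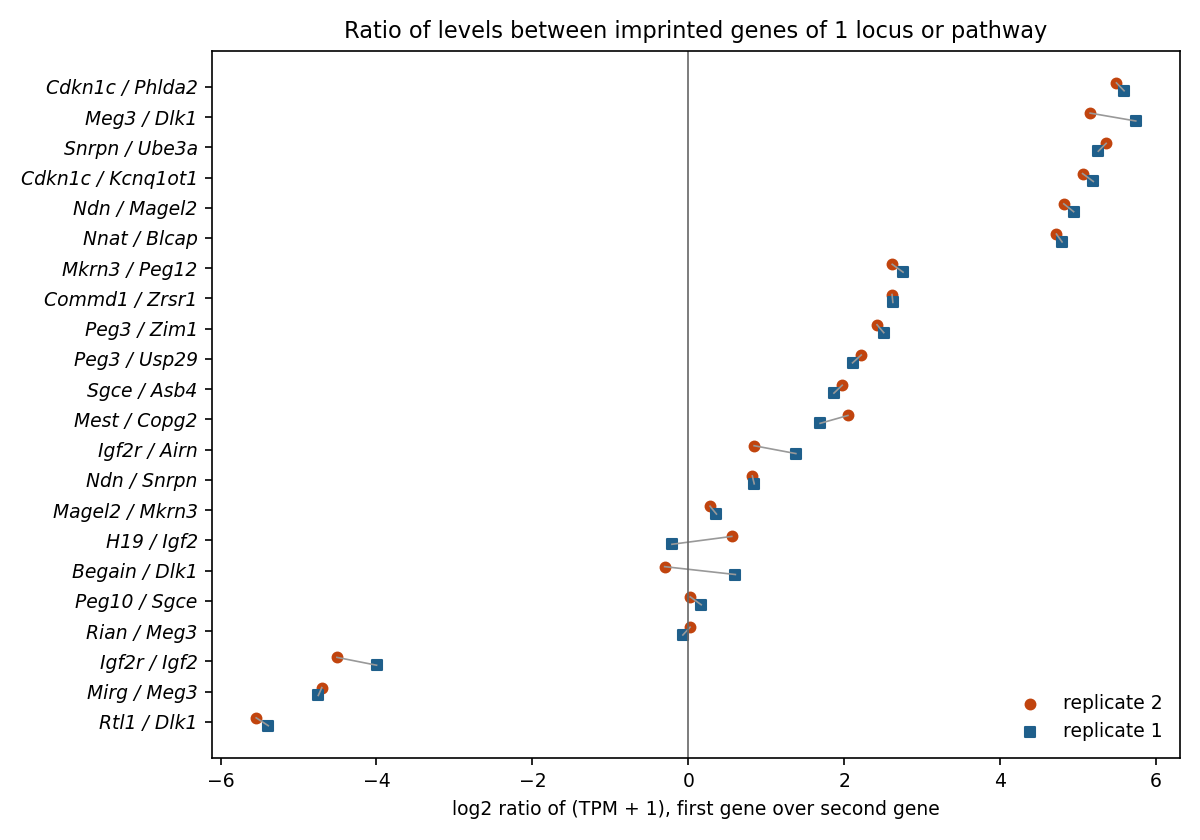
Log2 ratio of the levels of 22 pairs of genes on the scale of TPM plus 1, of which 21 share an imprinted cluster and 1, Igf2r over Igf2, joins a receptor to its ligand on another chromosome, with a dot for each library. The pairs Begain over Dlk1, H19 over Igf2 and Rian over Meg3 lie on both sides of 0.

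Gnas on chromosome 2 encodes Gs alpha, which couples receptors to adenylyl cyclase, and has further first exons for the maternally expressed Nesp protein, the paternally expressed XL alpha s protein and the paternally expressed noncoding exon 1A. The gene had 1651 TPM in replicate 2 and 1711 TPM in replicate 1 (1681 ± 42.1) and ranked 46 among all genes. Of 24 transcripts, Gnas-208, which encodes Gs alpha, had 1394 TPM in replicate 2 and 1466 TPM in replicate 1, which was 84.4% of the gene in replicate 2 and 85.7% in replicate 1. Gnas-205, a short Gs alpha transcript of 730 nt, had 5.08% in replicate 2 and 4.95% in replicate 1. Grouped by first exon, transcripts from the Gs alpha exon held 92.1% in replicate 2 and 92.8% in replicate 1 (92.5 ± 0.533). The Nesp group held 2.66% in replicate 2 and 2.13% in replicate 1, and the exon 1A group 3.58% in replicate 2 and 3.71% in replicate 1. The XL group held 0.143% in replicate 2 and 0.155% in replicate 1.

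Junction reads into the shared second exon gave the same order for the leading exon and changed it among the minor ones. Of 35498 reads, 33988 came from the Gs alpha exon (95.7%, exact 95% interval 95.5 to 96.0%) and 819 from Nesp (2.31%, 2.15 to 2.47%). Exon 1A gave 645 reads (1.82%, 1.68 to 1.96%) and XL 46 reads (0.130%, 0.0949 to 0.173%). Exon 1A was thus above Nesp by transcript TPM and below it by reads into this shared exon. That count leaves out exon 1A reads to other acceptors. From the exon 1A donor 1067 reads entered a further exon of 24 nt. From the donor of that exon 475 reads went to another acceptor (mm9 chromosome 2, 174153867). The junction reads therefore give no order between exon 1A and Nesp as a whole. A cassette exon of 45 nt separates the long from the short form of Gs alpha. Of 38507 reads that left the donor before it, 38013 (98.7%) entered it, while 329 (0.854%) and 154 (0.3999%) passed it to acceptors 3 nt apart.

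The first exons of Gnas lie in different sequence. The windows below run from 250 bases before to 50 after a RefSeq start on GRCm38.p6 (plus strand), in lower case because none holds TGCCGC or its reverse complement GCGGCA, the hexamer bound by the imprint-keeping protein ZFP57. The Nesp window (chr2:174284070-174284369) holds 16 CpG, the exon 1A window (chr2:174327499-174327798) 27 and the Gs alpha window (chr2:174329756-174330055) 40.
Gnas, Nesp start: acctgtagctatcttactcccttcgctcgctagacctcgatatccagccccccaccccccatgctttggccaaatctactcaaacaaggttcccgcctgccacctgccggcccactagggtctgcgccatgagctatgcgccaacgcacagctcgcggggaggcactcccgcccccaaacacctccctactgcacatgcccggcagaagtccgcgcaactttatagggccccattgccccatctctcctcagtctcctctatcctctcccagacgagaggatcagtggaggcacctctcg
Gnas, exon 1A start: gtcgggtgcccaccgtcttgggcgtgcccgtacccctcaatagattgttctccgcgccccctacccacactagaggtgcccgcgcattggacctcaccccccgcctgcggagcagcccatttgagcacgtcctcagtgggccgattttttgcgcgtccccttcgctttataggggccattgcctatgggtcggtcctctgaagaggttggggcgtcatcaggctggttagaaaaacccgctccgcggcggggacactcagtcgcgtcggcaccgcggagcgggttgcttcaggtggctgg
Gnas, Gs alpha start: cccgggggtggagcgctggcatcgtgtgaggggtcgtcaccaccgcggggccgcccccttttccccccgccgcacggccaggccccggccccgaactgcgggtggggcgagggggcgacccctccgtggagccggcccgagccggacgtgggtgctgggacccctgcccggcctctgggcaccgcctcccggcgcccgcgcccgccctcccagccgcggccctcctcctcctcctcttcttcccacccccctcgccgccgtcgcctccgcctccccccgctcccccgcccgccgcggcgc

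Grb10 on chromosome 11 encodes an adaptor that dampens insulin and growth factor signalling, and is known to be maternally expressed in most tissues and paternally expressed in neurons from downstream promoters. The gene had 63.9 TPM in replicate 2 and 47.4 TPM in replicate 1 (55.7 ± 11.7), a log2 ratio of 0.44. Of its 9 transcripts, Grb10-201 from the upstream first exon (12037192 to 12037401, minus strand) had 40.1 TPM in replicate 2 and 33.4 TPM in replicate 1, which was 62.8% of the gene in replicate 2 and 70.4% in replicate 1. Grb10-203 from a first exon further downstream (12027903 to 12027971) had 15.7 TPM in replicate 2 and 7.63 TPM in replicate 1, which was 24.5% of the gene in replicate 2 and 16.1% in replicate 1. Junction reads into the shared exon gave a much lower share for Grb10-203. Of 905 reads 786 came from the first exon of Grb10-201 (86.9%, exact 95% interval 84.5 to 89.0%) and 11 from that of Grb10-203 (1.22%, 0.608 to 2.16%). The downstream first exon of Grb10-207 gave 81 reads (8.95%) against 3.80% of the TPM in replicate 2 and 4.64% in replicate 1, and that of Grb10-209 gave 27 reads (2.98%).

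**Figure D5:**
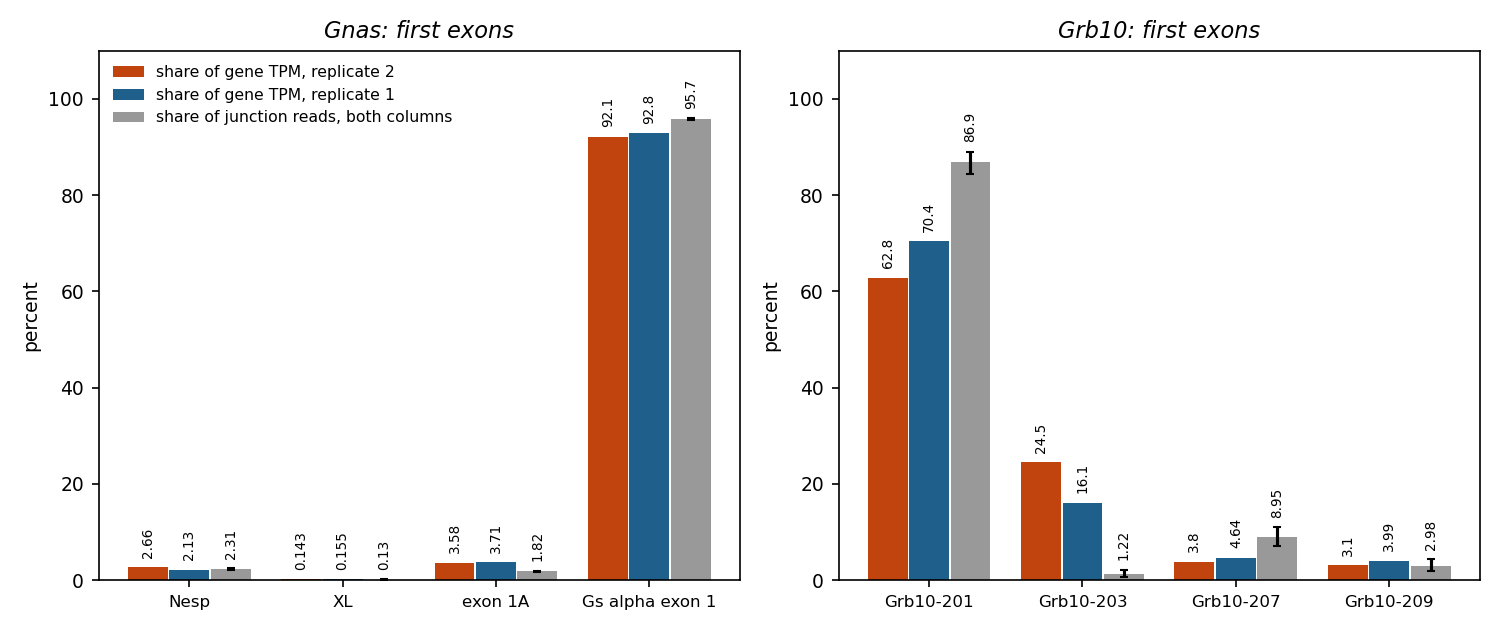
Share of each first exon of Gnas and Grb10 in the transcript TPM of replicate 2 and replicate 1 and in the junction reads of both mm9 replicates, the last with exact 95% intervals. The Gs alpha exon leads Gnas by every measure, and the first exon of Grb10-203 has 24.5% of the TPM in replicate 2 and 16.1% in replicate 1 but 1.22% of the junction reads.

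The sequences before these starts are shown with those of Nnat and Mest, because they span the range from a window with no hexamer to one with 2. Capitals mark TGCCGC or GCGGCA. The Grb10-201 window (chr11:12037371-12037670, minus strand) holds 45 CpG and 1 hexamer, and the Grb10-203 window (chr11:12027922-12028221, minus strand) 9 CpG and none. The Mest window (chr6:30737800-30738099, plus strand) holds 17 CpG and 2 hexamers, and the Nnat window (chr2:157559828-157560127, plus strand) 17 CpG and 1.
Grb10-201 start: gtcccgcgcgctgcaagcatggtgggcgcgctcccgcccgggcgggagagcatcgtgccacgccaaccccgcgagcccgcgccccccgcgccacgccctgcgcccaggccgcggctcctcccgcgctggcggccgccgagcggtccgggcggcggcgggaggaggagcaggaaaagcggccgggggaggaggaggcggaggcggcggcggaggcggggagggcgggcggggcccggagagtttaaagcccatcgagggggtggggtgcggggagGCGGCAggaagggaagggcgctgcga
Grb10-203 start: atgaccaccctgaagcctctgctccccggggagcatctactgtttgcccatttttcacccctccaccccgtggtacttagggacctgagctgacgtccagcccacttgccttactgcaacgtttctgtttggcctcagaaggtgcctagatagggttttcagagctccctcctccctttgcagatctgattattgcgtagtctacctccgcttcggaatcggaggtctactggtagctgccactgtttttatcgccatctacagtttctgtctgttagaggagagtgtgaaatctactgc
Mest start: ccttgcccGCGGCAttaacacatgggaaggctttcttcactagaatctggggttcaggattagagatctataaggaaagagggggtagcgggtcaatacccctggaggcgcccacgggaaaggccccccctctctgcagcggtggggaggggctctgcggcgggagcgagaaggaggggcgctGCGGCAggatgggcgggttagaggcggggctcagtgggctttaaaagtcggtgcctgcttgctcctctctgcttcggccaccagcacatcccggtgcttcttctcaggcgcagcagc
Nnat start: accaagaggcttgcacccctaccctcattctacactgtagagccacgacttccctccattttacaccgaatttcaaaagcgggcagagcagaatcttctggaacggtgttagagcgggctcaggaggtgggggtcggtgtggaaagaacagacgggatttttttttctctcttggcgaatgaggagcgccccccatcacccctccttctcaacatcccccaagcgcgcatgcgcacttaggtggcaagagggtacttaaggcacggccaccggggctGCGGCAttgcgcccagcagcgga

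Over the 33 imprinted genes with a window in the RefSeq table, 12 of 54 windows (22.2%) held the hexamer on either strand, against 3813 of 32851 windows of all genes (11.6%). The median window held 15 CpG for imprinted genes and 7 for all genes. Windows of the same gene can overlap, and a match of these letters says nothing of binding or methylation here.

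The remaining genes lie alone or in pairs. Inpp5f, a phosphoinositide phosphatase gene, had 172 TPM in replicate 2 and 175 TPM in replicate 1 (173 ± 2.21). A short transcript from a start inside the gene is the paternally expressed one in brain. The junction reads compared only first exons inside the gene (mm9 chromosome 7, introns from 135831122 and 135832761, with the gene starting at 135754842). Of 2232 reads from these into 1 shared acceptor, 2123 (95.1%) came from the more downstream one. Reads from other exons into that acceptor were not counted, so the share of the short transcript in the gene is not given. Nap1l5, a nucleosome assembly protein retrogene inside Herc3, had 143.8 TPM in replicate 2 and 139.9 TPM in replicate 1. Commd1, a regulator of copper handling, had 59.1 TPM in replicate 2 and 50.65 TPM in replicate 1. The retrogene Zrsr1 in its intron, related to a subunit of the splicing factor U2AF, had 8.83 TPM in replicate 2 and 7.38 TPM in replicate 1. Commd1 exceeded Zrsr1 by a log2 of 2.62 ± 0.01. The zinc finger gene Plagl1 had 42.05 TPM in replicate 2 and 46.9 TPM in replicate 1. Impact, an inhibitor of the GCN2 stress pathway, had 35.9 TPM in replicate 2 and 32.9 TPM in replicate 1. The transport protein gene Trappc9 had 20.5 TPM in replicate 2 and 24.0 TPM in replicate 1. Rasgrf1, a Ras activator of neurons, had 12.1 TPM in replicate 2 and 13.3 TPM in replicate 1. Slc38a4, an amino acid transporter gene best known from placenta and liver, had 3.22 TPM in replicate 2 and 2.23 TPM in replicate 1.

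Chromosome 7 holds 15 of the 40 genes (37.5%), against 7.40% of all detected genes. The 6 long noncoding RNAs (Meg3, Rian, Mirg, H19, Airn and Kcnq1ot1) made 44.7% of the summed TPM of imprinted genes in replicate 2 and 41.0% in replicate 1.

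Genes that keep or read imprints were present as well. Of 30 regulators 27 were detected, and none of the 27 that passed the count filter differed 2-fold between libraries. Zfp57, the zinc finger protein that protects imprints from demethylation, was the highest at 345.5 TPM in replicate 2 and 384 TPM in replicate 1. Trim28, its corepressor, had 285 TPM in replicate 2 and 335 TPM in replicate 1, and the histone H3 lysine methyltransferase gene Ehmt2 had 243 TPM in replicate 2 and 263 TPM in replicate 1. The germline and oocyte genes were at the floor. Ctcfl was listed at 0 in both libraries, Dnmt3l at 0 in replicate 2 and 0.08 TPM in replicate 1, and Dppa3 at 0 in replicate 2 and 0.03 TPM in replicate 1.

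A second list held 49 further genes classed as imprinted, of which 47 were found. Whether each is imprinted in this tissue was not examined, and Dcn is also among the meningeal and fibroblast markers above. The list was lower than the 40 above. Of the 47, 36 were detected (76.6%). A mean of 100 TPM was reached by 10.6% of the 47, undetected ones included, against 3.63% of all genes and 10.6% of all detected genes. The median over the 47 was 9.91 TPM in replicate 2 and 9.96 TPM in replicate 1. This was above the 0.04 TPM of all genes in each library and below the median of detected genes alone. None of 45 that passed the count filter differed 2-fold. The highest were Snhg14, given above, the tetraspanin gene Cd81 at 208 TPM in replicate 2 and 224 TPM in replicate 1, and the nucleosome assembly protein gene Nap1l4 at 165 TPM in replicate 2 and 169 TPM in replicate 1. The 11 with a mean under 1 TPM were Ascl2, Bmp15, Gpr1, Ins2, Kcnq1, Klf14, Mir335, Slc22a18, Slc22a2, Tfpi2 and Tspan32. Mir335 lies within the Mest transcript and its hairpin is shorter than the RNA sequenced here.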

How the data were processed

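The authors deposited, for each library, expected counts, TPM and FPKM of genes and transcripts on mm10 with the GENCODE M4 annotation, per the read-me texts. The software behind them is not given in the sources used here. On mm9 with Ensembl 65 the authors deposited tables of the whole series: gene values named RPKM, junction read counts for 2 replicates, a contig signal level, and an irreproducibility score. Replicate numbers on mm9 are not tied to a library and were never matched to one. Entries that are no gene took 4.01% of the expected counts in replicate 2 and 3.62% in replicate 1 and were left out of library sizes. A count of 0 allows up to 3 fragments, or 0.0219 CPM in replicate 2 and 0.0319 CPM in replicate 1.

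Symbols and GRCm38 positions came from GENCODE M21, sequences from RefSeq for GRCm38.p6, and no coordinates were moved between builds. Ratios are replicate 2 over replicate 1 of CPM from rounded expected counts, scaled by TMM (edgeR 4.0.16) with a prior count of 1, for genes that passed filterByExpr at a count minimum of 10. They were tested on simulated data with known fold changes. With 1 group no test between conditions exists and no p-value is given. Pairs are log2 differences of TPM with a pseudocount of 1, and junction shares have Clopper-Pearson 95% intervals. All 40 genes were accounted for. Those at 100 TPM or more, those 2-fold apart, those in pairs and Gnas, Grb10 and Mest are given with both values, as are transcripts with 5% of their gene, and the 3 highest genes and all under 1 TPM on average of the 2 further lists. Genes, lists and pairs were chosen with earlier results of these data known. DESeq2 1.42.0 size factors, other units, filters, pseudocounts and leaving out each replicate were alternatives. Work was done in Python 3.11.15, pandas 2.3.3, SciPy 1.17.1, matplotlib 3.10.9 and R 4.3.3.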

Additional observations from a re-analysis of the deposited data

How the results depend on the processing

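Under the alternatives run, 3 pairs that have no order between libraries changed sign: Rian over Meg3 (log2 0.02 without replicate 1), Begain over Dlk1 (-0.30 without replicate 1 and -0.40 on mm9 RPKM) and H19 over Igf2 (-0.21 without replicate 2). The other 19 pairs and the median log2 ratio kept their sign, and the sizes moved as follows. The median level of 44.6 TPM became 27.7 as FPKM, 53.1 as TPM rescaled over nuclear genes, 52.6 over detected imprinted genes and 4.66 as mm9 RPKM for 36 genes, with 42.1 to 47.1 when 1 replicate was left out. The median log2 ratio of 0.041 became 0.090 with library size alone. The count of genes 2-fold apart, 2 as reported, was 1 (H19) on TPM with a pseudocount of 1 and 4 at 1.5-fold (H19, Dlk1, Airn and Rtl1). As a share of expected counts the leading first exon became 91.8% for Gnas, 75.7% for Grb10 and 95.4% for Mest, and among protein-coding transcripts 96.3% for Gnas and 99.7% for Mest. With 1 replicate left out it ranged from 92.1 to 92.8% for Gnas, 62.8 to 70.4% for Grb10 and 87.2 to 92.9% for Mest. Of 127 alternative pair values 53 moved by over the SD between libraries and 74 did not, and 19 of the moves came without the length correction. The 74 include 22 values without replicate 1 and 22 without replicate 2. With only 2 libraries such values cannot move by over the SD, so they say nothing of stability. The 3 genes covered by antisense contigs stayed 3 at a score of at most 0.1, an alternative chosen after seeing the data. No paired analysis was possible because there is 1 group. Depth limits Phlda2 (17 fragments in replicate 2 and 9 in replicate 1) and Rtl1 (545 in replicate 2 and 152 in replicate 1), and the mm9 values have no library of their own.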

Other observations

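In the mm9 junction file, whose replicates are not tied to a library, 2 unannotated Meg3 junctions were uneven. Over 13 annotated Meg3 junctions of at least 500 reads the ratio of R2 over R1 had a median of 1.59 and ran from 1.41 to 3.01. The unannotated junction from 110806805 to 110809600 on mm9 chromosome 12 had 1398 reads in R2 and 102 in R1, a ratio of 13.7. The junction from 110796531 to 110806620, which leads into the exon before it, had 1662 reads in R2 and 352 in R1, a ratio of 4.72. Both were chosen after their values were seen.

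Junction reads outside the annotation were unevenly spread over the imprinted genes, counting junctions of 10 or more reads with a score of at most 0.1. Over the 36 imprinted genes with an mm9 identifier they made 1.72% of the junction reads, against 3.35% over the whole file. At Nap1l5 (226 reads on 3 junctions) no annotated junction had reads, so they made 100%. Ndn (102 reads on 3 junctions) is annotated with a single exon, so its share of 100% is fixed by the annotation. Reads outside the annotation made 85.1% of the junction reads within Peg10 (1309 reads on 8 junctions) and 43.6% within Zim1 (745 reads). Within Cdkn1c they made 18.5% (851 reads) and within Sgce 8.67% (686 reads). Meg3 had 59 such junctions with 10149 reads, which made 3.11% of its junction reads.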
